A study of Mus musculus with 6 samples.

Results

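Reverse transcription stops at G-quadruplex motifs were compared between K+ and Li+ libraries of the day 3 samples of a mouse embryonic stem cell differentiation series. The sites were those with a coverage of at least 20 reads in K+ and in Li+ in both day 3 replicates, after removal of the genes CT010467.1 and Gm15564 and of the mitochondrial chromosome. This left 956 of 5538 listed sites, in 527 gene entries, of which 193 held more than 1 site. Many sites overlapped, so that the 956 sites formed 722 separate motif clusters and 400 sites shared a cluster with another one. The same rule kept 1273 sites on day 0 and 3036 on day 7.

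All samples came from 1 clonal embryonic stem cell line carrying TsixTST beside a normal allele, of the strain cross 129S1/CastEiJ x 129S1, with the genotype labelled WT. Day 0 cells were undifferentiated, day 3 cells had been grown as embryoid bodies in suspension without leukemia inhibitory factor, and day 7 cells had grown attached after day 3, with 2 samples per day. The stem cells were grown on inactivated feeder cells and were depleted of feeders before differentiation. Every sample, K+ and Li+ alike, had been treated as trypsinised cells with dimethyl sulfate (DMS), although the treatment field reads None. Polyadenylated RNA bound to chromatin was fragmented, and fragments of 1 sample were reverse transcribed in K+ or in Li+, which gave a K+ and a Li+ library per sample. The labels do not say whether replicates were separate cultures, so p-values reflect only how far these samples varied, which may be technical, and all results concern 1 clone.

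RNA G-quadruplexes are stacks of planar guanine quartets, held together by a monovalent cation in the central channel. K+ stabilises the stack and stops reverse transcriptase at its 3′ edge, whereas Li+ does not stabilise it, so that stops in Li+ measure enzyme pausing and fragment ends that do not need a quadruplex. DMS methylates guanines that are exposed in the cell, and methylated guanines cannot refold in the K+ reaction, so a K+ stop above the Li+ level is the signal read for a motif whose guanines DMS did not reach in living cells. The stop share used below is the number of stops divided by the coverage at a site, and differences between shares are in percentage points, K+ minus Li+.

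Some of the motifs that carry the comparison are shown as deposited, 5′ to 3′ on the transcript strand, with positions on GRCm38.p6 counted from 1. Capitals mark runs of at least 3 guanines, or of at least 2 in the two-quartet motifs. The first group holds motifs in 3′ untranslated regions (3′ UTRs) with a higher K+ than Li+ share in both replicates, of which Prmt1 and Lin28a passed Fisher's exact test in both. Other motifs of this kind, such as the bulged ones of Trim71 and Phb2, are not shown. The Prmt1 and Lin28a motifs lie at chr7:44976835-44976862 and chr4:134003569-134003586, both on the minus strand. The Atic, Srrm2 and Slc16a3 motifs lie on the plus strand at chr1:71579226-71579253, chr17:23824452-23824480 and chr11:120958277-120958297. The Hnrnpa0, Prrc2a and Tubb5 motifs lie on the minus strand at chr13:58127057-58127078, chr17:35149172-35149196 and chr17:35834172-35834196.
Prmt1, canonical: GGGGGGatGGGcttGGGGGatGGGGGGG
Lin28a, canonical: GGGGaGGGtGGGaaaGGG
Atic, canonical: GGGGGtcaGGGGGaagtGGGGGtGGGGG
Srrm2, canonical: GGGaGGGaGGGagtctaGGGaGGGaGGGG
Hnrnpa0, canonical: GGGtGGGGGttGGGcGGGaGGG
Prrc2a, canonical: GGGGtGGGtGGGGaGGGGttgtGGG
Slc16a3, bulged: GGGGagaggtggcGGGGtGGG
Tubb5, two-quartet: GGagagatGGGGGttGGGGGtgcGG

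For contrast, these are motifs of the long noncoding RNA Malat1, which passed the test in replicate 1 alone, and of deeply covered coding sequence whose K+ share was not above the Li+ share in both replicates. The coding motifs shown are all two-quartet, but such coding sites also include bulged motifs, in Ankrd60 and Ncl, which are not shown. The Malat1 motifs lie on the minus strand at chr19:5800312-5800329 and chr19:5799994-5800018. The Rpl8 motif lies on the plus strand at chr15:76904885-76904908, and the Hnrnpa2b1 and Rps3 motifs on the minus strand at chr6:51463457-51463485 and chr7:99480002-99480026.
Malat1 at 5800312, bulged: GGGaggagtGGGtGGGGG
Malat1 at 5799994, bulged: ggccttgtgtttGGGtGGGtGGGGG
Rpl8, two-quartet: GGaGGagaaacctGGGGacaGGGG
Hnrnpa2b1, two-quartet: GGtcctGGaGGaagtGGaGGaagtGGtGG
Rps3, two-quartet: GGGGccaaGGGctgcgaGGttgtGG

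On day 3 the typical stop share was higher in K+ than in Li+ in both replicates, and by more in replicate 1. The median share over the 956 sites was 5.43% and 2.87% in the K+ libraries of replicates 1 and 2, against 2.44% and 2.00% in the Li+ libraries. The K+ libraries averaged 4.15% ± 1.81 and the Li+ libraries 2.22% ± 0.309 (SD, n = 2 each). Both K+ medians lay above both Li+ medians, which gives p = 0.33 in a two-sided exact permutation test, the smallest that 2 against 2 allows. The K+ share exceeded the Li+ share at 709 sites in replicate 1 (74.2%) and at 588 in replicate 2 (61.5%), and was below it at 230 (24.1%) and 296 (31%). It did so in both replicates at 463 sites (48.4%) and was lower in both at 80 (8.37%). Both K+ libraries lay above both Li+ libraries at 359 sites (37.6%) and below both at 53 (5.54%).

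The depth differed between the libraries and ran in opposite directions in the 2 replicates. The sites held 66610 and 133068 reads in the K+ libraries, against 291758 and 72908 in the Li+ libraries. Median coverage per site was 41 and 85 reads in K+, against 183 and 46 in Li+. No stop was seen at 147 and 129 sites in K+, against 56 and 339 in Li+. The shallow K+ library of replicate 1 was the one with the higher median share, and the part of depth in that value was not tested.

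**Figure D1:**
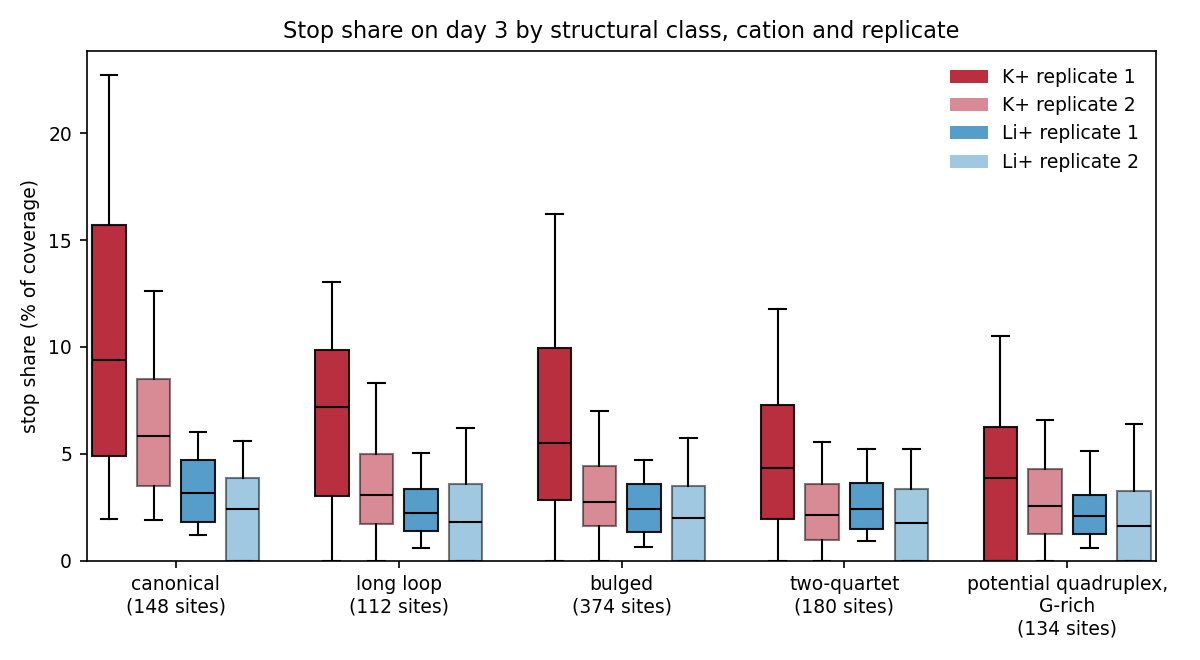
Stop share in percent of coverage at the day 3 sites by structural class, for the 2 K+ libraries and the 2 Li+ libraries. Boxes show quartiles with the median as a line, and whiskers the 10th and 90th percentiles. In canonical motifs the K+ medians are 9.40% and 5.82%, against 3.14% and 2.43% in Li+.

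Across all sites no K+ against Li+ difference passed the replicate test. In limma on the log2 odds of a stop, 0 of 956 sites (0%) had an adjusted p under 0.05, and the lowest adjusted p was 0.335. At an unadjusted p under 0.05 there were 98 sites (10.3%), all with higher odds in K+. The median log2 odds ratio of K+ over Li+ was 0.72, beside a median standard error of 0.95 per site. With the sample as a block the median was 0.90 and 173 sites had an unadjusted p under 0.05, still with 0 calls. Without replicate 1 the median log2 odds ratio was 0.33, and without replicate 2 it was 1.35.

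Fisher's exact test within each replicate, which covers counting error only, called 161 sites in replicate 1 (16.8%) and 3 in replicate 2 (0.314%), all higher in K+. At an unadjusted p under 0.05 replicate 1 had 268 sites higher in K+ (28%) and none lower, and replicate 2 had 33 higher (3.45%) and 10 lower (1.05%). The 3 sites called in replicate 2 were also called in replicate 1 (0.314% of sites), and they were the canonical 3′ UTR motifs of Ddit4, Prmt1 and Lin28a. In simulated data the test in both replicates called 0.278% of unchanged sites. Those sites were adjusted together with changed ones, and their calls did not need the same direction in both replicates. This value therefore cannot say how many of the 3 calls are false. In all 3 genes both K+ libraries lay above both Li+ libraries, which the calls themselves favour and which held at 37.6% of all sites.

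Ddit4 encodes an inhibitor of mTORC1 signalling that is induced by stress. Its motif stopped 39 of 215 and 70 of 551 reads in K+, against 38 of 1000 and 6 of 264 in Li+. The shares were 18.1% and 12.7% in K+, with exact Clopper-Pearson 95% intervals of 13.2% to 24.0% and 10.0% to 15.8%. In Li+ they were 3.80% and 2.27%, with intervals of 2.70% to 5.18% and 0.839% to 4.88%. The intervals of the 2 cations did not overlap in either replicate. Fisher's exact test gave an adjusted p of 1.6e-09 in replicate 1 and 0.00023 in replicate 2, and the limma log2 odds ratio was 2.41 ± 0.72 (SE, adjusted p = 0.34).

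Prmt1 encodes the main arginine methyltransferase that makes asymmetric dimethylarginine. Its motif stopped 82 of 427 and 84 of 1012 reads in K+, against 102 of 2464 and 26 of 723 in Li+. The shares were 19.2% and 8.30% in K+, against 4.14% and 3.60% in Li+, so that the Li+ libraries nearly coincided and the K+ libraries differed. Fisher's exact test gave adjusted p-values of 4.1e-21 and 0.027, and limma a log2 odds ratio of 1.79 ± 0.64 (SE, adjusted p = 0.36).

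Lin28a encodes an RNA-binding protein of pluripotent cells that blocks let-7 maturation. Its motif stopped 14 of 82 and 30 of 186 reads in K+, against 17 of 294 and 3 of 116 in Li+. The K+ shares of 17.1% and 16.1% were nearly equal, against 5.78% and 2.59% in Li+. Fisher's exact test gave adjusted p-values of 0.020 and 0.035, and limma a log2 odds ratio of 2.08 ± 0.62 (SE, adjusted p = 0.34). At a coverage minimum of 10, which tests more sites, Lin28a was no longer called in both replicates.

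**Figure D2:**
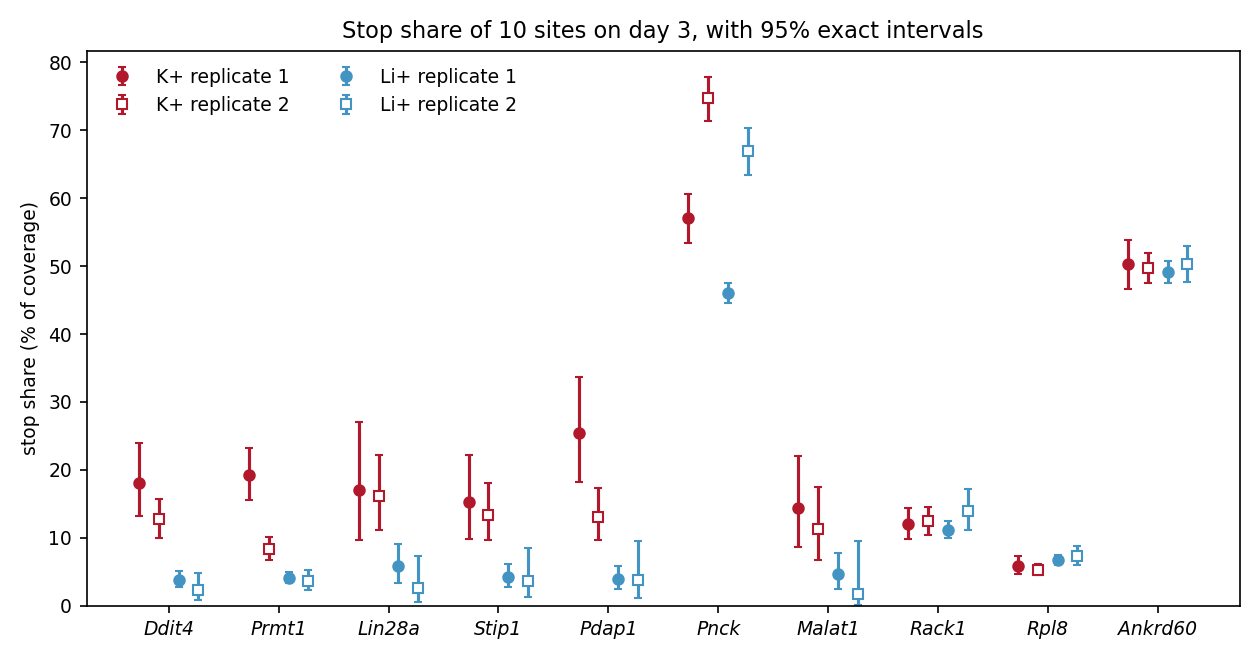
Stop share in percent of coverage at 10 sites in the K+ and Li+ libraries of both day 3 replicates, with exact 95% intervals that cover counting error only. The Malat1 site is the one that starts at 5799987. Ddit4, Prmt1 and Lin28a have K+ shares above their Li+ shares in both replicates, whereas Rack1, Rpl8 and Ankrd60 do not. The sites named in this comparison were picked by these values.

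A further group of sites, singled out after the values were seen, had an unadjusted Fisher p under 0.05 in both replicates with K+ higher. It held 26 of the 956 sites, in 23 genes, the 3 above included. Of the 26, 19 lay in 3′ UTRs, as did 567 of all 956 sites, and 13 were canonical (50.0%, against 15.5% of all sites). Of the 33 sites (3.45%) with an unadjusted p under 0.05 and K+ higher in replicate 2, these 26 had the same in replicate 1.

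The following sites of the group are canonical 3′ UTR motifs. Stip1, a co-chaperone that joins Hsp70 and Hsp90, had shares of 15.3% and 13.4% in K+, against 4.27% and 3.70% in Li+. Atic, an enzyme of purine synthesis, had 22.0% and 11.2% in K+, against 8.30% and 2.22% in Li+. Pdap1, a PDGF-associated phosphoprotein, had 25.4% and 13.1% in K+, against 3.87% and 3.85% in Li+. In each gene both K+ values exceeded both Li+ values, which the choice of this group favours and which held at 37.6% of all sites.

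Srrm2, a scaffold protein of nuclear speckles, had 14.1% and 6.64% in K+, against 2.10% and 0.694% in Li+. Hnrnpa0, a heterogeneous nuclear ribonucleoprotein, had 14.6% and 12.5% in K+, against 3.65% and 4.62% in Li+. Atxn2l, a paralogue of ataxin 2 found in stress granules, had 10.3% and 13.2% in K+, against 2.08% and 2.35% in Li+. Atxn2l, unlike most of these sites, had the higher K+ share in replicate 2.

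Csnk2a1, a catalytic subunit of casein kinase 2, had 27.1% and 20.3% in K+, against 4.17% and 5.26% in Li+. Prrc2a had 23.8% and 20.0% in K+, against 3.36% and 2.86% in Li+, from only 21 and 60 K+ reads. Tubb5, a beta tubulin, had 13.5% and 14.9% in K+, against 2.39% and 2.99% in Li+, in a two-quartet motif. The K+ shares of these 3 genes rest on at most 114 reads per library. Slc16a3, a lactate exporter, had a bulged motif with 17.5% and 11.1% in K+, against 3.43% in Li+ of replicate 1 and no stop in 49 reads of replicate 2. Trim71, a stem cell RNA-binding ubiquitin ligase that let-7 targets, had 4 of 22 and 6 of 37 K+ reads stopped, against 0 of 81 and 0 of 30 in Li+.

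Outside 3′ UTRs the group included coding motifs, noncoding motifs of Malat1 (from 5799987) and Platr10, and 1 site with a high background. Trh, the precursor of thyrotropin-releasing hormone, had 6.86% and 2.75% in K+ in its coding sequence, against 1.72% in Li+ of replicate 1 and 0 of 217 reads in Li+ of replicate 2. Asna1, which delivers tail-anchored proteins to the endoplasmic reticulum, had 11.2% and 7.19% in K+, against 4.00% and 1.05% in Li+. Pnck, a calcium and calmodulin-dependent kinase gene, had 57.1% and 74.7% in K+, against 46.0% and 67.0% in Li+, in a G-rich 5′ UTR region. At Pnck the K+ excess was thus a small part of a stop share that was also high in Li+, and the replicates differed more than the cations.

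The structural classes assigned by the authors differed in how often K+ was above Li+. Canonical motifs, with G runs joined by short loops, were higher in K+ in both replicates at 107 of 148 sites (72.3%) and lower in both at 3. Long-loop motifs were higher in both at 56 of 112 sites (50.0%) and bulged motifs, with an interrupted G run, at 183 of 374 (48.9%). Two-quartet motifs were higher in both at 73 of 180 sites (40.6%) and lower in both at 29. G-rich potential quadruplexes were higher in both at 43 of 134 (32.1%), and G-rich potential triplexes at 1 of 8. The background over all sites was 48.4%. No test was made between the classes, since sites are not replicates and share transcripts.

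The size of the difference also varied with the class. The median difference in canonical motifs was 6.42 points in replicate 1 and 3.42 in replicate 2. In long-loop motifs it was 4.16 and 1.50 points, and in bulged motifs 3.38 and 0.72 points. In two-quartet motifs it was 1.63 and 0.20 points, and in the G-rich potential quadruplexes 1.28 and 0.52. Canonical motifs had the largest median in both replicates, and in every one of these 5 classes the medians were positive in both replicates. Fisher's exact test in replicate 1 called 53 canonical (35.8%), 20 long-loop (17.9%), 61 bulged (16.3%), 15 two-quartet (8.33%) and 11 G-rich potential quadruplex sites (8.21%), against 16.8% of all sites, so that long-loop and bulged motifs were near the background.

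**Figure D3:**
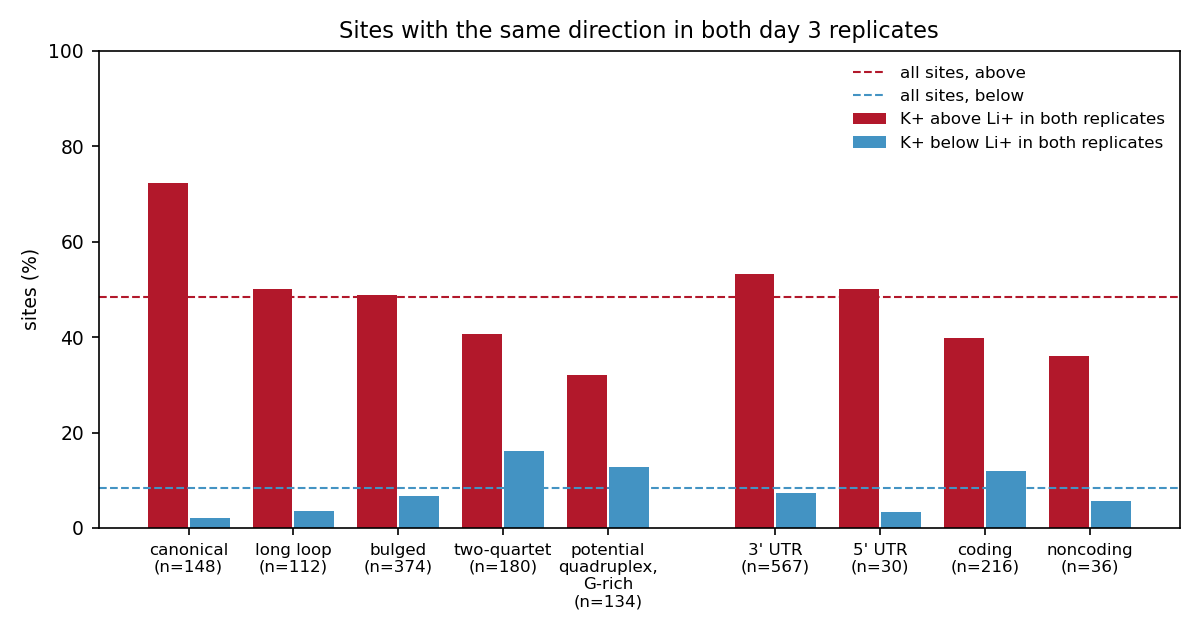
Percent of day 3 sites whose K+ share lay above or below the Li+ share in both replicates, by structural class and by transcript region, with dashed lines at the values of all sites (48.4% above and 8.37% below). Canonical motifs stand at 72.3% above, two-quartet motifs at 40.6% and coding sites at 39.8%.

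By transcript region, 302 of 567 sites in 3′ UTRs (53.3%) were higher in K+ in both replicates, and 86 of 216 in coding sequence (39.8%). Of 30 sites in 5′ UTRs 15 were higher in both (50.0%), and of 36 in noncoding transcripts 13 (36.1%). Canonical motifs within 3′ UTRs were higher in both replicates at 92 of 116 sites (79.3%) and lower in both at 1. Canonical motifs in coding sequence numbered 12, of which 5 were higher in both (41.7%). Bulged motifs were higher in both at 105 of 197 sites in 3′ UTRs (53.3%) and at 48 of 104 in coding sequence (46.2%).

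Features of the motif and of the stop were compared in the same way. Motifs with 5 runs of at least 3 guanines were higher in K+ in both replicates at 38 of 52 sites (73.1%), and motifs with 4, 3, 2, 1 and 0 such runs at 50.9%, 51.0%, 38%, 38.6% and 44.2% of 275, 312, 166, 70 and 52 sites, with no steady order below 5 runs. The last listed stop position lay 1 base past the 3′ end of the motif at 555 sites, of which 290 were higher in both (52.3%). Where it lay on the last base of the motif, 82 of 210 were higher in both (39.0%), 1 base before it 25 of 53 (47.2%), 2 bases before it 25 of 43 (58.1%), and 2 bases past the end 20 of 54 (37.0%), so that the share had no steady order with the position. Coverage moved with these shares as well: of the 111 sites with at least 100 reads in every day 3 library, 69 were higher in both (62.2%), and of the 342 sites with a lowest coverage of 20 to 29 reads, 155 were (45.3%).

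The replicates agreed in part. Across the 956 sites the K+ minus Li+ difference of replicate 1 had a Pearson's r of 0.29 and a Spearman's rho of 0.25 with that of replicate 2, and across the 111 sites with a coverage of at least 100 the r was 0.50. These are descriptions across sites, which share transcripts and libraries. Of the 161 sites called in replicate 1, 133 were also higher in K+ in replicate 2 (82.6%), 21 of them at an unadjusted p under 0.05, and their median difference was 12.1 points in replicate 1 and 2.69 in replicate 2. Of the 795 sites not called in replicate 1, 455 were higher in K+ in replicate 2 (57.2%).

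**Figure D4:**
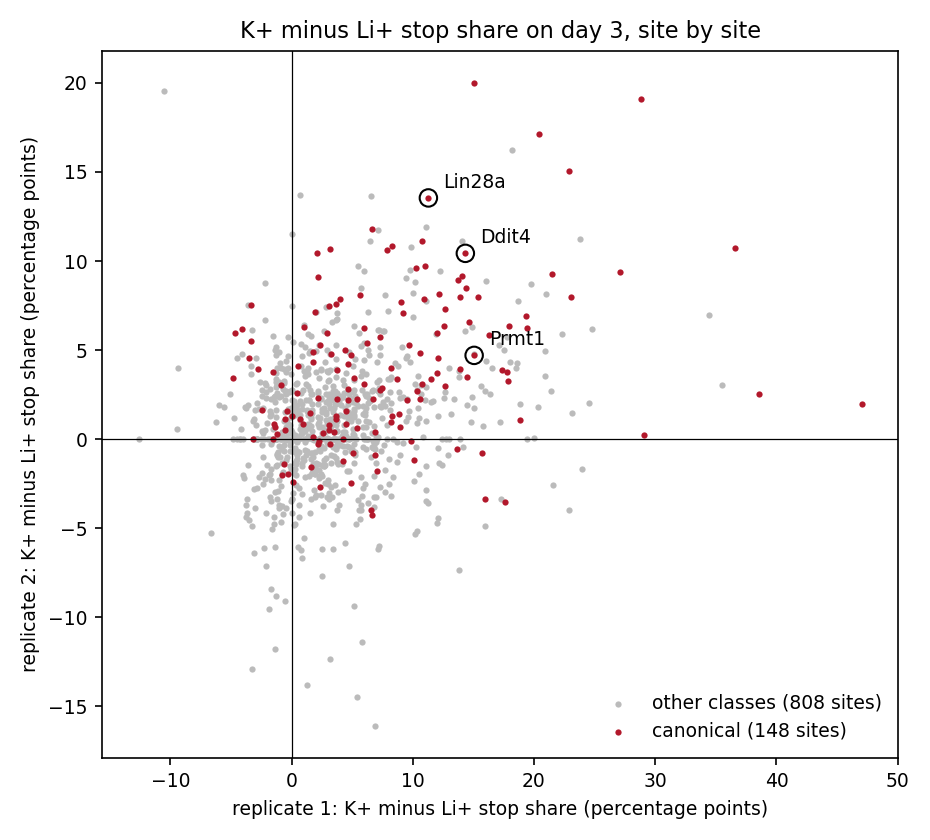
K+ minus Li+ stop share in percentage points at each of the 956 sites, replicate 1 on the x axis and replicate 2 on the y axis, with canonical motifs in red. The 3 circled sites, Ddit4, Prmt1 and Lin28a, passed Fisher's exact test in both replicates, and the spread along the x axis is wider than along the y axis.

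Malat1, a nuclear speckle RNA, showed the difference between the replicates within 1 transcript, and its sites are given here after their values were seen. It held 12 sites, of which Fisher's exact test called 9 in replicate 1 (75.0%, against 16.8% of all sites) and 0 in replicate 2, where it called 0.314% of all sites. The Malat1 sites were deeper, with a median lowest coverage of 102 reads, against 36 over all sites. Among sites with at least 100 reads in every day 3 library, the test called 39.6% in replicate 1. At the motif from 5799994 the K+ shares were 20.2% and 5.93%, against 6.08% and 6.38% in Li+. At the motif from 5799376 they were 29.6% and 5.85% in K+, against 5.63% and 7.55% in Li+. In both motifs the K+ library of replicate 1 stood apart and the other 3 libraries lay close together. At the motif from 5799987, which overlaps the first, K+ was higher in both replicates, with 14.4% and 11.3% in K+, against 4.61% and 1.79% in Li+. The motif from 5800608 was higher in K+ in replicate 1 (12.2%, against 4.02% in Li+) and lower in replicate 2 (2.21%, against 5.42% in Li+, with an unadjusted p of 0.032 in Fisher's exact test).

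Gene lists of pathways relevant to these cells had no member past the limma test, and only Lin28a and Ddit4 were called by Fisher's exact test in both replicates. Of 19 sites in 8 pluripotency gene entries, 12 were higher in K+ in both replicates (63.2%, against 48.4% of all sites), with median differences of 3.64 and 1.89 points. Of these, 8 sites lay in an entry that joins Sox2 with its overlapping transcript Sox2ot, and 6 of the 8 were higher in both. Pou5f1, which encodes the pluripotency factor Oct4, had 6.21% and 2.55% in K+, against 2.42% and 2.94% in Li+, in a long-loop coding motif. No site of the formative and primitive streak list or of the X-inactivation list passed the coverage rule. Of the feeder fibroblast markers only Fn1 had a site, with 11.8% and 2.78% in K+, against 1.41% in Li+ of replicate 1 and 0 of 20 reads in replicate 2.

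Genes for proteins that bind or unwind RNA G-quadruplexes held 78 sites in 17 genes, 35 of which were higher in both replicates (44.9%), near the background of 48.4%. Dhx9, an RNA helicase, held 20 of them, with 8 higher in both. At its bulged coding motif from 153456308, Dhx9 had 8.99% and 5.61% in K+, against 0.794% and 2.14% in Li+. Taf15 had all 4 of its sites higher in both, and Sfpq none of its 4, a pair also picked out after the values were seen. Of 20 sites in long noncoding RNAs 9 were higher in both (45.0%). Replicate 1 called 10 of them (50.0%, against 16.8% of all sites), 9 in Malat1, whose greater depth is given above.

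The other lists were small, and none was tested against all sites, of which 48.4% were higher in K+ in both replicates. Stress and immediate early genes had 10 of 17 sites higher in both replicates (58.8%), 6 of them among the 11 sites of Ddit4. Glycolysis and metabolism genes had 9 of 16, including all 4 sites of the pentose phosphate enzyme Tkt, whose canonical motif had 7.14% and 6.67% in K+, against 2.49% and 2.42% in Li+. Translation and ribosome genes had 9 of 18 (50%) and imprinted genes 4 of 8 (50%), both near the share of all sites. Cytoskeleton genes had 10 of 17 (58.8%), chromatin and transcription genes 5 of 8 (62.5%) and Polycomb genes 2 of 2. Peg10, a paternally expressed gene of retroviral origin, had 12.5% and 2.17% in K+, against 1.48% in Li+ of replicate 1 and 0 of 96 reads in Li+ of replicate 2. Chd4, the ATPase of the NuRD complex, had 17.9% and 8.72% in K+, against 3.32% and 2.15% in Li+.

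Some of the most deeply covered sites, singled out after their values were seen, did not have a higher K+ share in both replicates. Of the 37 sites with at least 200 reads in every day 3 library, 24 were higher in K+ in both (64.9%). Ankrd60, an ankyrin repeat gene, stopped 50.3% and 49.7% of reads in K+, against 49.1% and 50.3% in Li+, at a bulged coding motif with at least 742 reads in each library. The ribosomal protein gene Rpl8 had 5.90% and 5.30% in K+, against 6.69% and 7.28% in Li+, and a log2 odds ratio of -0.34 ± 0.31 (SE, adjusted p = 0.67). Rack1, a ribosome-bound scaffold protein, had 12% and 12.4% in K+, against 11.1% and 13.9% in Li+. At these sites the cations differed by no more than a few points at high depth. Hnrnpa2b1 had 2.06% and 1.53% in K+, against 2.35% and 1.52% in Li+, at the motif shown above. Rps3, another ribosomal protein gene, had 2.24% and 2.15% in K+, against 1.92% and 3.85% in Li+.

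The day 3 difference was set beside the same sites in the other tables. The median K+ minus Li+ difference was -0.11 and -1.03 points in the day 0 samples, 2.99 and 1.03 in the day 3 samples, and 1.00 and -0.21 in the day 7 samples. A pair of further tables, filed with the day 7 samples, is called in vitro in the table names alone, and its preparation is not given in the labels. In these tables the median was 29.2 and 31.1 points, with K+ above Li+ at all 955 and 941 sites covered. The deposited sites carry marks of K+ stops, so this direction may follow from how the sites were listed. Day 3 was thus the only day with a positive median in both replicates. By limma, day 3 minus day 0 in the K+ over Li+ log2 odds gave 0 of 839 sites (0%) at an adjusted p under 0.05, and 106 at an unadjusted p under 0.05, all higher on day 3 (12.6%), with a median of 1.08. Day 3 minus day 7 gave 0 of 954 (0%), with 21 higher on day 3 (2.20%) and 1 lower (0.105%) at an unadjusted p under 0.05, and a median of 0.48. Without day 3 replicate 2 the first comparison had 2 calls, in Eif4a1 and Malat1. Its median of 1.08 became 0.69 without day 3 replicate 1, 1.54 without day 3 replicate 2, 1.28 without day 0 replicate 1 and 0.90 without day 0 replicate 2. Its 106 sites at an unadjusted p under 0.05 became 13 without day 3 replicate 1, 170 without day 3 replicate 2, 83 without day 0 replicate 1 and 38 without day 0 replicate 2. For day 3 minus day 7, the median of 0.48 became 0.11 and the 22 sites 5 without day 3 replicate 1, and 1.05 and 94 without day 3 replicate 2. Without day 7 replicate 1 they were 0.88 and 39, and without day 7 replicate 2 0.23 and 6.

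**Figure D5:**
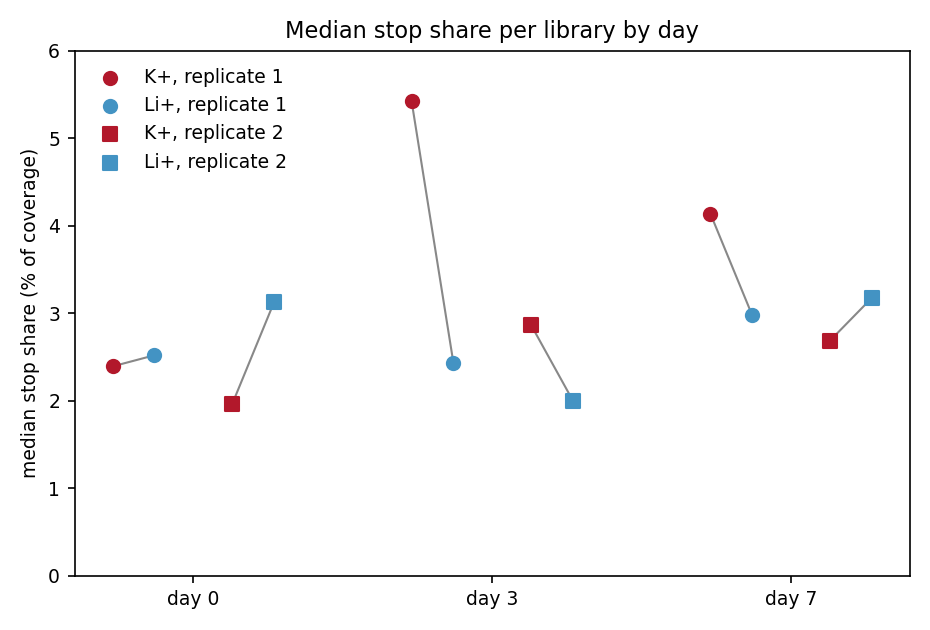
Median stop share in percent of coverage over the day 3 sites in each library on days 0, 3 and 7, with K+ and Li+ of 1 sample joined by a line. On day 3 both lines slope down from K+ to Li+, with medians of 5.43% and 2.87% in K+, against 2.44% and 2.00% in Li+.

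The 3 sites called on day 3 did not show a K+ excess in both samples of day 0. They were chosen by their K+ excess on day 3, which favours a larger change from day 0. Prmt1 had 4.55% and 3.63% in K+ on day 0, against 5.36% and 10.9% in Li+. On day 7 it had 15.3% and 7.10% in K+, against 8.72% and 5.18% in Li+. Ddit4 had 13.9% and 3.33% in K+ on day 0, against 4.07% and 16.2% in Li+, and 13.7% and 7.49% in K+ on day 7, against 7.01% and 4.65% in Li+. Day 0 replicate 2 had the higher Li+ share at both genes, and at Lin28a as well. Lin28a had 6.87% and 3.60% in K+ on day 0, against 5.88% and 18.2% in Li+, and 10.8% and 8.38% in K+ on day 7, against 4.35% and 8.04% in Li+. The change of the log2 odds between day 3 and day 0 was 3.06 ± 0.85 at Lin28a, 2.72 ± 0.92 at Prmt1 and 2.63 ± 1.05 at Ddit4 (SE), with limma adjusted p-values of 0.20, 0.23 and 0.30.

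Sites with a larger K+ excess in the tables named in vitro were more often higher in K+ in the day 3 cells. With sites split by in vitro difference into 3 groups of near equal size, 193 of 313 in the highest group were higher in both day 3 replicates (61.7%), against 141 of 314 in the middle group (44.9%) and 121 of 313 in the lowest (38.7%). Across 940 sites Spearman's rho between the in vitro difference and the day 3 difference was 0.32 in replicate 1 and 0.19 in replicate 2. In the tables named in vitro, Lin28a stopped 89.0% and 91.8% of reads in K+, against 23.8% and 30.8% in Li+, and Ddit4 stopped 28.4% and 30.2% in K+, against 13.3% and 10.7% in Li+.

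At the coverage minimum, 47 sites had a lowest coverage of exactly 20 reads and 43 just outside had 19. Just inside, Luc7l2 had 25.9% and 6.25% in K+, against 6.52% in Li+ of replicate 1 and 0 of 20 reads in Li+ of replicate 2. Just outside, Tuba1b had 25.0% and 12% in K+, against 12.4% and 15.8% in Li+. A library with 20 reads and no stop allows a share of up to 15.0%, so that differences of a few points were not detectable at such sites.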

How the data were processed

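Stops were analysed in 2 day 3 samples, with the 4 samples of days 0 and 7 for the spread. The submitters' processing notes name STAR, cutadapt and SAMtools and the builds GRCm38.p6 and mm10; settings, and whether strand was used, are not given in the sources. The deposited tables hold, per the file headers, whole-number read counts of coverage and of stops per site in K+ and in Li+, not normalised; the authors' other values (classes, regions, coordinates) were used as deposited. The lowest listed coverage above 0 is 6 reads. The 9 sites of ribosomal and mitochondrial genes that were left out held most of the listed day 3 reads (73.8% to 82.0%).

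The log2 odds of a stop (pseudocount 0.5) were tested with limma 3.58.1 in R 4.3.3, weighted by a beta-binomial variance, on 12 in-cell libraries in 1 fit; 118 sites had fewer libraries, with at least 8, because libraries of other days under 20 reads were dropped. Fisher's exact test, two-sided, was run per replicate in SciPy 1.17.1. Sites were called at an adjusted p under 0.05 (Benjamini-Hochberg over all 956 sites). Intervals and the floor of 3 counts cover counting error only. In data simulated for day 3 K+ against Li+ at 956 sites (10 simulations), limma recovered 2.2% of 2-fold, 26.2% of 4-fold and 88.6% of 16-fold changes. Fisher's test in both replicates recovered 1.8%, 13.0% and 76.4%. False calls among 7560 unchanged sites were 5 by limma and 21 by Fisher's test in both replicates (0.278%). The unchanged sites were adjusted together with the changed ones, and the simulated Fisher calls did not need the same direction in both replicates. The simulated libraries varied with an overdispersion of 0.0062 over all days, against 0.0132 fitted to the day 3 libraries alone. Recovery may thus be overstated and false calls understated.

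K+ and Li+ counts of 1 replicate come from the same sample per the labels, which pairs them; their deviations across sites correlated weakly (day 3 r = 0.01, day 0 r = 0.03, day 7 r = 0.21). The unit could not be recorded as counts because each record runs over 2 lines, so limma on odds, chosen for shares, was kept. Of 551 symbols 534 matched the RefSeq table of GRCm38.p6. Named sites were those called in both replicates, up to 5 genes per list by coverage (site with the lowest p), and sites beside the coverage minimum; others are said to be chosen afterwards or illustrate a list. The members and the gene lists were chosen with earlier results of these data known. Alternatives were the pseudocount, coverage minimum, weights, libraries fitted, sample block, 1 site per gene, and each replicate left out. The sequences of some named motifs are not reported here.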

Additional observations from a re-analysis of the deposited data

Results flagged for a closer look

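Several day 3 differences pointed the opposite way from both day 0 samples. The median K+ minus Li+ difference was positive in both day 3 samples (2.99 and 1.03 points) and negative in both day 0 samples (-0.11 and -1.03), a gap of 2.58 points between the means. The class medians that follow are over sites with at least 20 reads in every library of both days, so they differ slightly from those over all day 3 sites. For canonical motifs the gap was 6.47 points, with 6.26 and 3.36 on day 3 and -0.10 and -3.23 on day 0. The negative day 0 value of canonical motifs thus came mainly from replicate 2. There the median share of canonical motifs was 2.77% in K+, against 6.09% in Li+. In day 0 replicate 1 it was 3.58% in K+, against 3.64% in Li+. Why the day 0 samples differed was not tested. For long-loop motifs the gap was 3.26 points, for bulged motifs 2.75, for two-quartet motifs 1.10 and for G-rich potential quadruplexes 1.11, each positive in both day 3 samples and negative in both day 0 samples. These gaps between medians were not tested. Site by site, limma called 0 of 839 differences between the days.

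At Prmt1 the difference was 15.1 and 4.70 points on day 3 and -0.82 and -7.24 on day 0, a gap of 13.9 points. The limma adjusted p of this change was 0.23. Prmt1 was chosen by its day 3 values, which favours a wide gap.

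Among the ribosomal RNA sites of CT010467.1 that were left out, 2 had a higher K+ share in both day 3 replicates. At the bulged motif on chromosome 17 from 39846555 the shares were 23% and 20.7% in K+, against 14.3% and 19% in Li+, a mean difference of 5.24 points. At the G-rich region from 39847147 they were 7.00% and 7.70% in K+, against 6.35% and 5.88% in Li+, a mean difference of 1.24 points. The other 4 sites of this gene did not have a higher K+ share in both.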

How the results depend on the processing

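No alternative gave a day 3 K+ against Li+ call in limma, with medians of 0.33 to 1.35 (log2). With the replicate block, day 3 had 0 calls (median 0.90), as had day 3 minus day 0 (1.22) and day 3 minus day 7 (0.65), so the block changed no call. Leaving out 1 replicate gave 0 to 2 calls for day 3 minus day 0, the 2 without day 3 replicate 2, where 1 K+ and 1 Li+ library were assumed to vary like the others. The share of sites higher in K+ in both replicates was 41.3% at a coverage minimum of 10, 55.5% at 50 and 62.2% at 100, the last chosen after seeing the data. Fisher's test in both replicates called 2 sites at a minimum of 10 (Ddit4 and Prmt1, without Lin28a), 4 at 50 (these 3 and Atic), 5 at 100 (Atic, Ddit4, Stip1, Prmt1 and Pnck; Lin28a, with a lowest coverage of 82, was not tested there) and 1 at an adjusted p under 0.01 (Ddit4). It called 3 to 161 sites with 1 replicate left out, 3 without replicate 1 and 161 without replicate 2. Of 868 values of named sites under the alternatives, 821 moved by less than 1 SE, 32 changed sign and 0 were called; the cause was not tested.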
